A study of Mus musculus with 4 samples.

Results

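The transcription factors of the islet lineage were followed in NFIC ChIP-Seq of adult mouse pancreas as 9 genes chosen by name, *Pdx1*, *Neurog3*, *Neurod1*, *Pax4*, *Nkx2-2*, *Nkx6-1*, *Mafa*, *Isl1* and *Pax6*, out of 21000 protein-coding genes with a curated RefSeq transcript. Chromatin of whole pancreas from wild-type mice of mixed strain, 8 to 12 weeks old and with no treatment named in the labels, was precipitated with an anti-NFIC antibody from Bethyl in 3 libraries and sequenced beside 1 library of input DNA. Whether each library came from a single animal is not given in the sources used here. The authors deposited a single merged list of 15824 peaks of 173 bp on mm10, in which each peak carries a score, a focus ratio and the gene with the nearest transcription start site (TSS). The list has no value for a single library or for the input DNA, so the depth is unknown, the replicate error cannot be estimated and the comparisons are descriptions without a test. The peak score is the authors' own, on a scale that their methods do not name, and ran from 3.39 to 68.1 with a median of 6.57.

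NFIC belongs to the nuclear factor I family, which binds DNA as a dimer at a palindrome with the arms TGGC and GCCA. Endocrine cells of the pancreas arise from PDX1-positive progenitors in which NEUROG3 is switched on for a short time, and NEUROD1, PAX4, NKX2-2 and NKX6-1 then direct the cells towards the islet types. MAFA, ISL1 and PAX6 act in the maturing and adult islet, among other stages for the last 2, and help to keep hormone genes active there. In the adult pancreas the islets are a small part of the tissue and most cells are acinar, and the cell type from which a peak in the merged list came was not measured. Fewer cells of a type and less signal per cell cannot be told apart in such bulk material.

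NFIC peaks were assigned to 5 of the 9 islet factor genes, *Isl1*, *Nkx2-2*, *Nkx6-1*, *Neurod1* and *Mafa*, and no row of the list named *Pdx1*, *Neurog3*, *Pax4* or *Pax6*. This share was 55.6% (95% Wilson confidence interval 26.7 to 81.1, counting error only), where 37.2% of all protein-coding genes had an assigned peak, a value inside the interval. The 5 genes held 6 peaks in all, 2 at *Isl1* and 1 at each of the others. A second peak was thus found in 1 of 9 genes (11.1%), against 14.4% of all protein-coding genes. *Isl1*, *Nkx2-2* and *Mafa* each had a peak within 1 kb of the TSS in the authors' annotation, while the peaks of *Neurod1* and *Nkx6-1* and the other peak of *Isl1* were intergenic, 88.4, 106 and 307 kb away. Of all peaks in the list, 27.4% lay within 1 kb of a TSS, 17.9% beyond 50 kb and 30.6% were intergenic, and with 6 peaks these shares were set side by side without a test.

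The sequences below are the stretches of these peaks that came closest to the NFI palindrome, the arms TGGC and GCCA with 5 free bases between them, taken from RefSeq (GRCm38.p6, which shares its coordinates with mm10). They are shown because they are what the 6 peaks have or lack of the motif of the precipitated factor. Each is written 5′ to 3′ on the plus strand, and capitals mark the 8 fixed positions of the palindrome. For *Nkx2-2*, where 3 stretches tied at 2 mismatches, the single arm TTGGCA is given instead, in capitals and on the minus strand.
Isl1, 307 kb, chr13:116002685-116002713: aaatgggtTGGCagccaGCCCacagtttt
Nkx6-1, 106 kb, chr5:101558451-101558479: ttaggcttGGGCatgctGCCAatgctttc
Neurod1, -88.4 kb, chr2:79545037-79545065: ttgcatctGGGCaggtaGCCAagatttac
Mafa, 854 bp, chr15:75746984-75747012: ccgctcctTGGCcagacGCCCcacctcca
Isl1, -275 bp, chr13:116309894-116309922: gcgccgggTGGCccgggTCCCcggccgcc
Nkx2-2, 114 bp, chr2:147186322-147186347: tgacggcaccTTGGCAcctctcctgg

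Of *Neurod1*, *Pdx1*, *Neurog3* and *Pax4*, described first, *Neurod1* had an assigned peak, far from the gene, and the other 3 had none. NEUROD1, a basic helix-loop-helix activator and a target of NEUROG3, had a peak at chr2:79544914-79545086, -88.4 kb from its TSS in an intergenic region. Its score was 5.78, at the 38th percentile of all peaks, and 60.3% of the peaks in the list scored higher. The focus ratio, deposited by the authors and not defined in the sources used here, was 0.576 and stood at the 5.25th percentile. The window held the NFI palindrome with 1 mismatch (T1G, counted from 1 at the first T), 51 bp from the peak centre. The E-box CAGATG, on the minus strand, overlapped its first base. No other peak lay within 100 kb, and the next one, at 110 kb upstream, was assigned to *Ssfa2* with a score of 6.97.

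*Pdx1*, which codes for the homeodomain factor of pancreas formation and beta cell function, had no assigned peak, although 4 peaks lay within 100 kb. The nearest, at 13.3 kb downstream of its TSS, was a weak peak with a score of 4.18 at the promoter of the microRNA gene *Mir7k*. The strongest, at chr5:147293344-147293516 and 23.3 kb downstream, scored 12.3 (88.7th percentile), was intergenic in the authors' annotation, and lay in the long non-coding RNA gene *Gm35112* in RefSeq. A peak of score 6.17 lay at 24.2 kb, and another at the promoter of *Gsx1*, 81.4 kb upstream, scored 4.98. The peak at 23.3 kb held the palindrome without a mismatch, which none of the 6 assigned peaks did. Here too the capitals are the 8 fixed positions.
Pdx1, 23.3 kb, chr5:147293429-147293457: gcagggtcTGGCctgagGCCActccaggt

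*Neurog3*, the gene of the bHLH factor that starts endocrine differentiation, also had none of its own in a neighbourhood with many peaks. Of all protein-coding genes, it stood at the 95th percentile by the number of peaks within 100 kb, which was 8. Upstream, 3 intergenic peaks with scores from 5.98 to 8.17 were assigned to *Fam241b*, the nearest of them 27.8 kb from the *Neurog3* TSS. Downstream, 5 peaks with scores from 3.98 to 9.56 were assigned to *Mir7662* and *Tspan15*, and 4 of them lay in introns of *Tspan15*. *Pax4*, a paired-box gene that favours beta and delta cells over alpha cells, had 6 peaks within 50 kb, which put it at the 87.6th percentile by its number within 100 kb. These were assigned to *Snd1*, *Fscn3* and *Gcc1*, with scores from 5.38 to 10.8, and the nearest, 21995 bp away, was a promoter peak of *Fscn3* with a score of 10.8. At both genes the TSS of a neighbour was closer to each of these peaks in the authors' annotation.

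**Figure D1:**
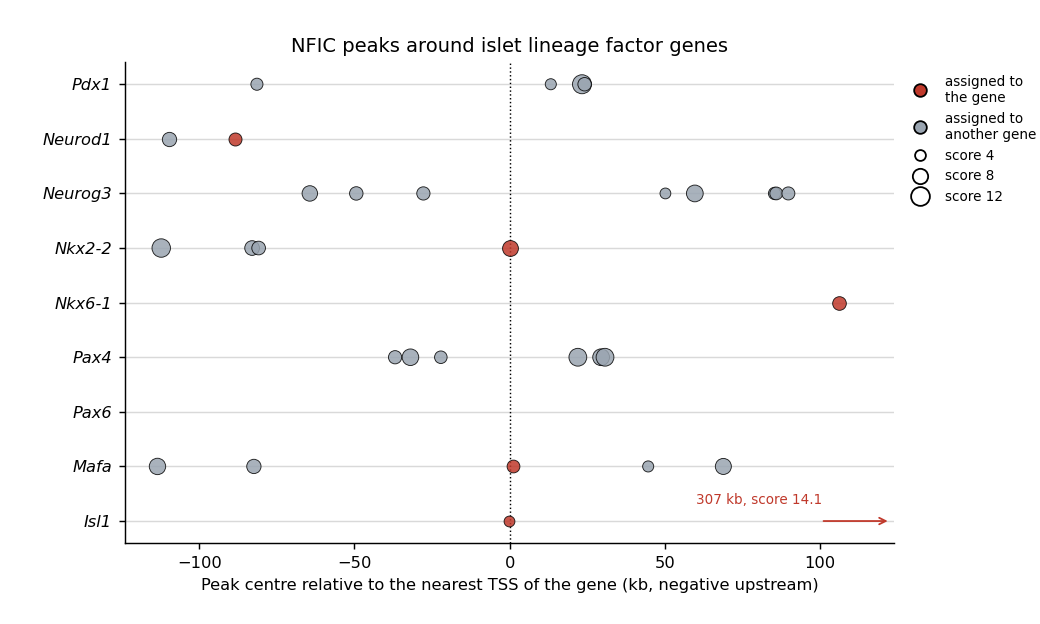
Peaks within 120 kb of the 9 genes, by the distance of the peak centre from the nearest RefSeq TSS of the gene in kb (x axis), with the area of a circle proportional to the peak score. Red circles are assigned to the gene and grey circles to another gene. *Neurog3* and *Pax4* are surrounded by peaks of their neighbours, *Pax6* has none in view, and the *Isl1* peak at 307 kb lies beyond the right edge.

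Among further genes with a role in beta cells, the peaks were at the gene itself for *Nkx2-2* and *Mafa* and at a distance for *Nkx6-1*. *Pdx1* and *Pax4*, described above and also linked to beta cells, had no assigned peak. NKX2-2 is a homeodomain repressor and activator needed for beta cell identity. Its peak, at chr2:147186202-147186374, lay 114 bp past the TSS in the 5′ UTR of exon 1, scored 8.56 (71st percentile) and had a focus ratio of 0.700. It was the closest peak to a TSS among the 9 genes, and 8.7% of protein-coding genes had one as near. The same bases lie inside the antisense transcript gene *Nkx2-2os*, which overlaps *Nkx2-2* and extends away from it on the plus strand. A further 3 peaks lay in introns of *Nkx2-2os* at 80.9, 83.0 and 112 kb upstream of *Nkx2-2*, with scores of 6.37, 7.37 and 11.6. The authors' annotation gave these to *6430503K07Rik* and *AI646519*, and by the nearest protein-coding TSS in RefSeq, 2 of them went to *Nkx2-2*.

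MAFA is the basic leucine zipper factor that drives insulin transcription in mature beta cells. The peak of *Mafa*, at chr15:75746982-75747154, lay inside the coding sequence of its single exon, 854 bp from the TSS in the authors' annotation and 1253 bp from the RefSeq TSS. Its score of 5.58 (34.6th percentile) was below the median of all peaks and of the 507 exon peaks (6.37), and its focus ratio of 0.574 was the lowest of the 6. It held the palindrome with 1 mismatch (A13C), 70 bp from the centre, and an E-box of the form CAGCTG. A further 3 peaks within 100 kb of *Mafa* were assigned to *Zc3h3*, *Rhpn1* and *Top1mt*, with scores of 6.97, 4.18 and 8.76, and that in *Zc3h3*, 82.4 kb upstream, held the exact palindrome. *Nkx6-1*, which codes for a homeodomain factor that keeps beta cells apart from alpha cells, had its peak at chr5:101558397-101558569, 106 kb downstream. It scored 6.37 (47th percentile), with a focus ratio of 0.755, the highest of the 6. The palindrome with 1 mismatch (T1G) was 18 bp from the centre and overlapped a single arm TTGGCA. No peak centre lay within 100 kb of *Nkx6-1*, a gene whose own stretch between the neighbouring TSSs, taken to the midpoint on each side, was 459 kb.

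Of the factors with a broad role in islet cells, *Isl1* had the strongest and the weakest of the 6 peaks. ISL1 is a LIM homeodomain factor of all islet cell types. Its promoter peak, at chr13:116309877-116310049 and -275 bp from the TSS, scored 3.98, and 92.9% of the 3270 promoter peaks scored higher. It had no NFI palindrome within 1 mismatch and no TTGGCA. It was the only peak from -1000 bp to the TSS of an islet factor gene, so that 1 of 9 genes (11.1%) had such a promoter peak, beside 10.7% of all protein-coding genes. The distal peak, at chr13:116002594-116002766, scored 14.1, which 7.15% of all peaks and 7.52% of intergenic peaks exceeded. It lies in a gene-poor region, where the stretch nearest to *Isl1* spans 962 kb, and assignment rests on proximity alone. The peak held 3 single arms TTGGCA, 1 of which overlapped the palindrome with 1 mismatch (A13C). The whole peak is shown because no other assigned peak held more than 1 such arm. Capitals mark the arms, written TGCCAA where they lie on the minus strand, and the fixed positions of the palindrome.
Isl1 distal peak, plus strand, chr13:116002594-116002766: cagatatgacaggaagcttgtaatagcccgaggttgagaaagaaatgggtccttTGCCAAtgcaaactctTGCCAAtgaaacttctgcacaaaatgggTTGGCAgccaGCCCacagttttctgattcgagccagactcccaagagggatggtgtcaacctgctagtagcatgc

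*Pax6*, whose paired-box product activates the hormone genes, was the islet factor farthest from any peak. The nearest, a promoter peak of *Rcn1* with a score of 6.97, lay 269 kb upstream, a distance at the 85.3rd percentile of protein-coding genes. None of the 4 curated *Pax6* TSSs had a peak within 100 kb.

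**Figure D2:**
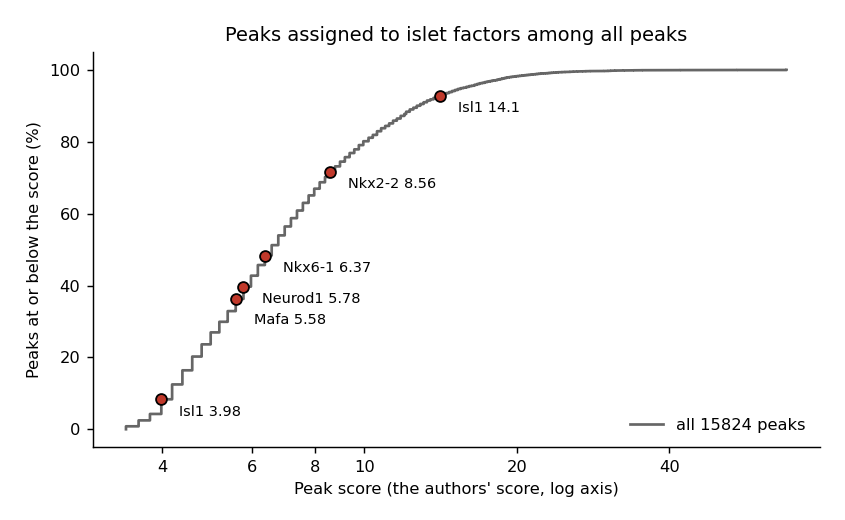
Cumulative share of all 15824 peaks (y axis, %) by peak score (x axis, log scale), with the 6 peaks assigned to islet factor genes as red points. The peaks run from 3.98 at the *Isl1* promoter to 14.1 at the distal *Isl1* peak, and 4 of the 6 lie under the list median of 6.57.

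Scores of the 6 peaks had a median of 6.08, slightly under the 6.57 of the whole list, and 2 of the 6 were above that value. One library cannot be set against another here, so neither difference can be weighed against an error. Within 100 kb of the TSS, 7 of the 9 genes (77.8%) had a peak of any assignment, where 72.1% of all protein-coding genes did. The share was 6 of 9 (66.7%) within 50 kb, beside 59.8%, and 3 of 9 (33.3%) within 10 kb, beside 33.7%. A peak centre lay inside the gene body of 2 of 9 (22.2%), beside 26.9%. All of these shares of the islet factors were near those of protein-coding genes at large. The median distance to the nearest peak was 21995 bp, that of *Pax4*, against 29.6 kb for all protein-coding genes. In total, 27 peaks lay within 100 kb of an islet factor TSS, of which 4 were assigned to that factor and 23 to another gene. The stretch between neighbouring TSSs was longer than the genome-wide median of 48.9 kb in 8 of the 9 genes, all but *Pax4*. From the lowest to the highest quartile of this length, 24.1%, 33.4%, 43.3% and 48.0% of protein-coding genes had an assigned peak, and the quartiles held 0, 1, 4 and 4 of the islet factors. The part of this length in the count of islet factors with a peak was not tested.

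**Figure D3:**
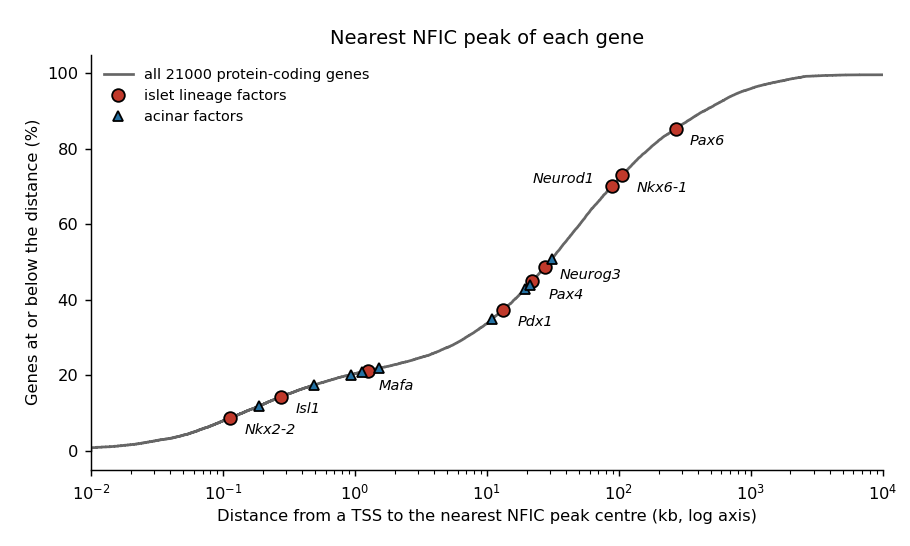
Distance from a TSS to the nearest NFIC peak centre (x axis, kb, log scale) against the cumulative share of all 21000 protein-coding genes (y axis, %), with islet lineage factors as red circles and acinar factors as blue triangles. The islet factors spread from 0.114 kb at *Nkx2-2* to 269 kb at *Pax6*, and the 9 acinar factors all lie within 50 kb of a peak.

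The peaks near a TSS and the distal peaks differed in base composition. In the 200 bp around the centre, the peaks of *Isl1* (-275 bp), *Nkx2-2* and *Mafa* had a GC content from 63.5 to 76.5% and a ratio of observed to expected CpG from 0.769 to 0.944. The distal peaks of *Isl1*, *Neurod1* and *Nkx6-1* had 46.0 to 54.5% GC and a CpG ratio of at most 0.191. The ranges of both sets did not overlap. Peaks of the whole list differed in the same direction, with a median GC content of 63.5% and a median CpG ratio of 0.717 over the 4987 peaks within 2 kb of a TSS, and of 50.5% and 0.202 over the 2840 peaks beyond 50 kb. The NFI palindrome with at most 1 mismatch was present in 4 of the 6 peaks (66.7%, 95% Wilson confidence interval 30.0 to 90.3), beside 51.8% of all peaks and 15.3% of 32851 RefSeq promoters of 300 bp. These were the 3 distal peaks and that of *Mafa*, and over the whole list the share was 56.2% beyond 50 kb and 41.1% within 2 kb. With windows of 100 bp in place of 200 bp, 2 of the 6 peaks held it, a share below the 39.4% of all peaks. None of the 6 held the exact palindrome, which 13.4% of all peaks did. In all 4 the mismatch was at the outer base of an arm, position 1 or 13, where 46.5% of the 6073 peaks with a best match of 1 mismatch had one. The single arm TTGGCA, which can overlap the palindrome, was present in 3 of 6, beside 33.7% of all peaks. Other letters were searched on both strands. The E-box CAGATG was in 2 of the 6 peaks (14.3% of all peaks) and CAGCTG in 1 (21.4%), while TGTTTAC of FOX factors, GATAAG of GATA factors, the homeodomain core TAATTA and CAAGGTCA of NR5A2 were in none, beside 3.99%, 7.74%, 2.34% and 2.04% of all peaks.

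**Figure D4:**
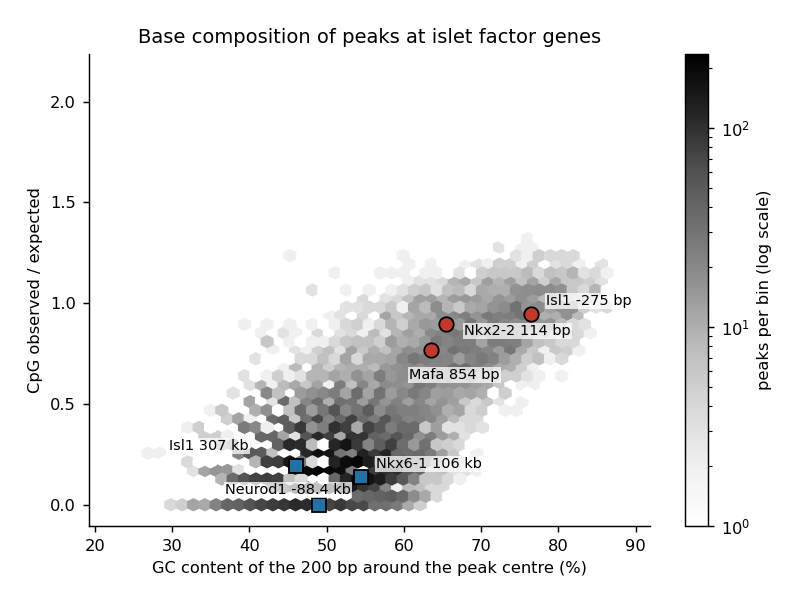
GC content of the 200 bp around each peak centre (x axis, %) against the ratio of observed to expected CpG (y axis), with all peaks as grey bins on a log scale of counts. Red circles are the islet factor peaks near a TSS and blue squares the distal ones, which lie apart on both axes (63.5 to 76.5% against 46.0 to 54.5% GC).

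Promoter sequences of RefSeq (GRCm38.p6, 250 bases before to 50 after a start) were matched by symbol for 7 of the 9 genes, with 8 promoters. *Mafa* and *Pax4* had no entry. None of the 8 held the palindrome within 1 mismatch or the arm TTGGCA, which were in 15.3% and 14.1% of all promoters. GC content was 66.7 to 69.0% in *Neurod1*, *Nkx6-1*, *Neurog3* and *Isl1*, 58.7 and 46.3% in the 2 promoters of *Pax6*, and 59.7 and 55.3% in *Nkx2-2* and *Pdx1*. The letters CAGCTG were found in the promoters of *Isl1* and *Neurog3* (16.3% of all promoters), CAGATG in that of *Nkx2-2* (17.2%), and GATAAG in those of *Isl1* and *Pax6* (7.44%).

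The lists of factors with acinar and with ductal or hepatic roles were set beside the islet factors, without a test. All 9 acinar factors had an assigned peak, with 30 peaks in all, a median of 3 per gene and a median score of 8.46. At least 2 peaks were assigned to 7 of them (77.8%), against 1 of the 9 islet factors (11.1%) and 14.4% of all protein-coding genes. The highest acinar score was 18.3 at *Nr0b2*, a nuclear receptor that represses NR5A2, and the nearest peak to a TSS was that of *Bhlha15*, which codes for MIST1, at 0.187 kb. Of 10 HNF, FOXA, ONECUT and SOX9 factors, 8 had an assigned peak (80.0%, Wilson confidence interval 49.0 to 94.3). The 37.2% of all protein-coding genes lay below this interval, which covers counting error only in a list of genes chosen by name. These 10 genes had a median stretch between neighbouring TSSs of 117 kb, against 48.9 kb for all protein-coding genes. The part of this length in the share was not tested. The 8 genes with an assigned peak had 12 peaks with a median score of 5.28. The nearest to a TSS was that of *Hnf4a*, at 0.106 kb. The islet factors had fewer peaks per gene than the acinar factors and a median score between those of the other lists. The palindrome within 1 mismatch was in 15 of the 30 acinar peaks and in 6 of the 12 of the other list, both near the 51.8% of all peaks. Of other islet transcription factors, 6 of 19 had an assigned peak (31.6%, 15.4 to 54.0), near the 37.2% of all genes. Each of the 6 had at least 2 peaks, so that this share was also 31.6%, beside 14.4% of all protein-coding genes. The 19 genes had a median stretch between neighbouring TSSs of 495 kb, against 48.9 kb, and its part in these shares was not tested. A peak of any assignment lay within 100 kb of 57.9% of the 19 genes (72.1% of all genes) and within 10 kb of 26.3% (33.7%). *Sox11* led with 7 peaks and the highest score, 25.7. Its stretch between neighbouring TSSs was 1040 kb, and 4 peaks of any assignment lay within 100 kb of its TSS. *Sox4*, which acts with NEUROG3 in endocrine progenitors, had the peak nearest to a TSS, at 0.074 kb. No peak was assigned to *Insm1*, *Rfx6* or *Mnx1*.

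**Figure D5:**
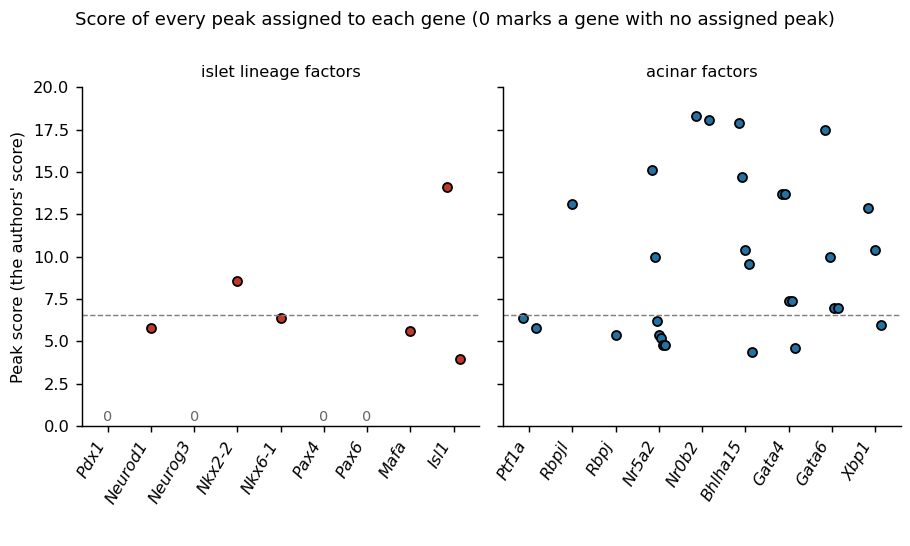
Score of every peak (y axis, the authors' score) assigned to each gene of the islet lineage and acinar lists of transcription factors (x axis), where 0 marks a gene without an assigned peak and the dashed line is the median of all peaks, 6.57. The 6 islet factor peaks reach 14.1 and the 30 acinar factor peaks 18.3.

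The tissue label was checked against markers of its cell types, with the limit that a peak does not measure expression. Of 9 acinar enzyme genes, 7 had an assigned peak (77.8%, 95% Wilson confidence interval 45.3 to 93.7), beside 37.2% of all protein-coding genes, and 4 had a promoter peak (44.4%, beside 10.7%), the highest score being 17.9 at the elastase gene *Cela2a* and the nearest peak to a TSS that of *Cela3b*, at 0.123 kb. Of 6 duct markers, 3 had a peak (interval 18.8 to 81.2%, which includes the 37.2% of all genes), with the highest score, 33.7, at the mucin gene *Muc1* and the nearest peak, 0.066 kb from the TSS, at the keratin gene *Krt7*. The other 3, *Spp1* and *Car2* among them, had none, and the peak nearest to *Car2* was 268 kb away. A promoter peak was found in 2 of the 6 duct markers (33.3%), beside 10.7% of all protein-coding genes. Of 8 islet hormone genes, 1 had a peak (12.5%, interval 2.24 to 47.1), and this interval also includes 37.2%. The counts of duct markers and hormone genes with an assigned peak were therefore not distinguishable from the share of all genes. The share of each cell type in the tissue was not measured.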

How the data were processed

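Whole mouse pancreas was profiled by NFIC ChIP-Seq (3 libraries, 1 of input DNA). The submitters' processing notes name BWA, Picard and MACS2 with mm10, the header of the list names HOMER annotation, and versions and thresholds are not given in the sources used here. The peak score is a score that the authors deposited for the merged list, the focus ratio is a fraction that the authors deposited, and the distance to the TSS is in bp. Values of single libraries are not part of it.

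Genes were matched to the list by Entrez ID, and TSSs and sequence were taken from RefSeq on GRCm38, the assembly of mm10. Percentiles count the share of values below, with ties split evenly. Motifs were searched on both strands in 200 bp around peak centres, and the search was tested on simulated data. Alternatives varied the score, the merging of peaks, the assignment, the windows and the mismatches. Python 3.11, numpy 2.4.6, pandas 2.3.3, scipy 1.17.1, pysam 0.24.0 and matplotlib 3.10.9 were used. The members, lists and measures were chosen with earlier results of these data known. All 9 members are named, and of each other list the gene with the highest score and that with the nearest peak. Other genes of these lists named as having no peak were chosen after their values were seen. Single values of some genes of these lists are not reported here.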

Additional observations from a re-analysis of the deposited data

How the results depend on the processing

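When the list was restricted to scores in its upper 2 quartiles, 2 of the islet factor genes, *Isl1* and *Nkx2-2*, kept a peak (21.9% of all protein-coding genes did), with 2 peaks in all, a median score of 11.3, the palindrome in 1 of them and a promoter peak in 0 genes (5.57% of all). With the promoter window from -1000 to 1000 bp, 3 genes had a promoter peak (18.1% of all genes), and within 10 kb in place of 100 kb, 3 genes had a peak (33.7%). With no mismatch allowed the palindrome was in 0 of the 6 peaks (13.4% of all peaks), and in windows of 100 bp it was in 2 (39.4%). Assignment to the nearest protein-coding TSS of RefSeq gave 6 genes (39.8% of all genes), with *Pdx1* added, and 9 peaks. Merging of peak centres within 500 bp changed none of the 6 results. No paired analysis was possible because the list holds no values per library. With 6 peaks, shares have wide intervals.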

Other observations

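Genes that act downstream of the islet factors were also looked up. Of 20 genes of glucose sensing and regulated secretion, 10 had an assigned NFIC peak (95% Wilson confidence interval of the share 29.9 to 70.1%), with 23 peaks in all, and 37.2% of all protein-coding genes lie inside this interval. The highest score was 21.7 at *Ptprn2*, which codes for a dense-core vesicle protein and had 4 assigned peaks. Its gene body of 792473 bp held 6 peak centres, whatever gene they were assigned to. The peak nearest to a TSS was that of *Syt7*, a calcium sensor of exocytosis, at 0.041 kb with a score of 4.78. Of the 8 hormone genes, *Ghrl* had a single promoter peak in the authors' annotation, with a score of 6.17, and no peak was assigned to *Ins1*, *Ins2*, *Gcg*, *Sst*, *Ppy*, *Pyy* or *Iapp*. The median distance of the 8 hormone genes to the nearest peak was 118 kb, from 1.74 kb at *Ghrl* to 524 kb at *Iapp*, and *Ppy* and *Pyy*, at 14047 and 20504 bp, lay nearer than the median of 29.6 kb over all protein-coding genes.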
